A study of Mus musculus with 180 samples.

Results

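The cholesterol and fatty acid synthesis genes were 33 genes, taken by name from the 14825 genes of a table of single cell expression values, and all 33 were listed there. They comprised 7 enzymes of the mevalonate and isoprenoid steps, 11 enzymes that make squalene and convert it to cholesterol, 5 genes of SREBP control and sterol transport, and 10 genes of fatty acid synthesis, elongation and desaturation. The list did not hold every gene of these pathways. A gene was taken as present in a cell when its TPM, the length-corrected share of its transcripts scaled to a sum of 1000000 per cell, was 1 or more. In some population, 31 of the 33 reached a share of 10% of cells, and Acaca and Scd1 did not.

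The study asked whether the homeobox gene Hoxb5, switched on in multipotent progenitors (MPP), which normally sustain blood formation only briefly, gives them lasting engraftment. Each sorted cell was sequenced on its own by Smart-seq2, in 4 populations. The 47 CD11b+CD48+SK cells were donor-derived (CD45.2+, GFP+), lacked lineage markers and carried Sca1, c-kit, CD48 and CD11b when sorted at Week 8 after MPP of Mx1-cre;RosaLSL-Hoxb5-EGFP/+ mice, in which injected pIpC had induced Cre through the interferon-responsive Mx1 promoter, were transplanted into lethally irradiated CD45.1+ primary recipients. The 41 WT-MPP and the 36 bone marrow haematopoietic stem cells (BM HSC) came from RosaLSL-Hoxb5-EGFP/+ mice aged 8 weeks, which carried the same silent cassette but no Cre. The 56 fetal liver stem cells (FL HSC) had that genotype too and came from embryos at E14.5, though 1 of their label fields names bone marrow, and were sorted for CD11b and CD150 among other markers. All mice were on the C57BL/6 background. No transplanted control MPP were among the cells, so Hoxb5, transplantation, pIpC and the sort for CD48, and against the adult populations also that for CD11b, cannot be told apart in any difference of the CD11b+CD48+SK cells from the other populations.

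Cholesterol is built from acetyl-CoA. The mevalonate enzymes make isoprenoid units, which also feed protein prenylation, ubiquinone and dolichol, squalene synthase commits them to sterols, and a series of enzymes in the endoplasmic reticulum then turns lanosterol into cholesterol. When sterol is low, SCAP carries the SREBP transcription factors to the Golgi, where they are cleaved and released to the nucleus, and INSIG proteins hold the complex back when sterol is plentiful. SREBP2 chiefly drives the cholesterol enzymes and SREBP1c the fatty acid enzymes, and in blood stem cells sterol supply is known to bear on proliferation, mobilization and lineage output.

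Promoters of 5 genes with large differences, and of Hmgcs1 for its sterol element, are shown first, since SREBP proteins act beside the CCAAT-binding factor NF-Y and the GC-box factor Sp1. RefSeq windows of GRCm38.p6 from 250 bases before to 50 bases after the gene start matched 26 of the 33 genes in 33 windows. Windows for Fdps, Fdft1, Sqle, Stard4, Scd1, Scd2 and Fads1 were not used here. Each run is 30 bases, 5′ to 3′ on the strand of the gene, and capitals mark the letters CCAAT or GGGCGG, or their reverse complements, and in Hmgcs1 the sterol regulatory element TCACNCCAC. The runs lie at chr8:64733625-64733654 on the minus strand for Sc4mol, chr5:4104709-4104738 minus for Cyp51, chr13:8885537-8885566 plus for Idi1, chr13:119690204-119690233 plus for Hmgcs1, chr3:89454393-89454422 plus for Pmvk and chr19:10101672-10101701 minus for Fads2. In GENCODE M21, which gives the gene positions below, Sc4mol, Cyp51, Idi1 and Fads2 start farther upstream than in RefSeq, so that their runs lie inside the gene there.
Sc4mol: gcaGGGCGGgagtgGGGCGGaCCAATtacg
Cyp51: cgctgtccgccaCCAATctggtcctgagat
Idi1: CCGCCCtagccttgcctccagctgATTGGc
Hmgcs1: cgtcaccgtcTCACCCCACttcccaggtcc
Pmvk: aactcaggttggCCAATtcacagcatctag
Fads2: cgggcctagggtGGGCGGaggaaggggacc

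Searched on both strands, CCAAT stood in 22 of the 33 windows (66.7%) against 37.4% of all 32851 windows of 300 bases in the table. The letters GGGCGG stood in 25 windows (75.8%) against 35.7% of all. Of the 15 cholesterol enzymes with a window, 14 held CCAAT, and Acat2 did not. The element TCACNCCAC stood in 1 window (3.03%), that of Hmgcs1, against 1.24% of all, and the E-box CACGTG in 7 windows (21.2%) against 7.15%. None of the 4 motifs contains another, and a match is a run of letters only. Of the 26 genes with a window, 21 held CCAAT. Sc4mol, which differed most between BM HSC and CD11b+CD48+SK cells, and Pmvk, which differed most between both stem cells in mean log2(TPM+1), were among them. No CCAAT was found in the window of Fads2, which had the largest difference of any member over all comparisons on that scale. A link of motifs with the differences was not tested.

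Each cell was 1 library and no animal was named, which made each population 1 sample, and populations were not tested against each other. TPM keeps no read counts, so depth is unknown, and the number of genes present per cell stands in its place. Its median was 4441.5 in BM HSC and 5206.5 in FL HSC, against 3844 in WT-MPP and 4514 in CD11b+CD48+SK cells. In WT-MPP and FL HSC the ranges were 2615 to 4751 and 3974 to 6789. Of 10 stem cell marker genes, 9 were lower by 1 log2 unit or more in CD11b+CD48+SK cells than in BM HSC, and all 5 MPP markers, among them Cd48, which the sort used, were higher by as much, where 11.8% of all genes were lower and 13.4% higher. Every FL HSC held the globin transcript Hbb-b2, at a mean of 1805 TPM. The summed TPM of 6 listed erythroid markers ran from 104 to 11606 in FL HSC with a median of 2406, where the other populations had medians of 39.5 or less. Its mean in FL HSC was 3293 TPM, most of it from Hbb-b2 and from Hbb-b1, at a mean of 1426 TPM. Hba-a1, Hba-a2 and Klf1 were present in 1.79%, 16.1% and 3.57% of FL HSC, against at most 2.44%, 12.8% and 6.38% of the others. Epor was present in 41.1% of FL HSC, against at most 19.4% of the others. Of 10 hepatocyte markers 6 were listed. Albumin (Alb) was at 0 in the other populations and present in 1 of 56 FL HSC at 16.9 TPM, but transferrin (Trf) was present in 85.1% of CD11b+CD48+SK cells and 58.9% of FL HSC. The summed list had a median of 147 TPM in CD11b+CD48+SK cells and 78.4 TPM in FL HSC, where WT-MPP had 1.10 and BM HSC 4.78. Most of it was Trf, at a mean of 185 TPM of a mean sum of 206 in CD11b+CD48+SK cells, and 66.0 of 81.9 in FL HSC. Apoa1 and Apoa2 were at 0 in every CD11b+CD48+SK cell. The sum of the 9 listed granulocyte precursor markers reached 6828 TPM in CD11b+CD48+SK cells, with a median of 706, where the median of WT-MPP was 484, that of BM HSC 312 and that of FL HSC 518. Mpo was present in 91.5% and Ctsg in 83% of CD11b+CD48+SK cells, against at most 19.6% and 2.78% of the others, while Elane, Cebpe and Ltf were at 0 in every CD11b+CD48+SK cell. Prtn3, present in 93.6% or more of each population, had a mean of 343 TPM in CD11b+CD48+SK cells, against 561, 373 and 471 TPM in WT-MPP, BM HSC and FL HSC. The sum of 4 mast cell and basophil markers reached 9317 TPM in CD11b+CD48+SK cells, with a median of 223, against medians of 101, 351 and 120 in WT-MPP, BM HSC and FL HSC. Macrophage markers had a median sum of 40.1 TPM in FL HSC and 0 in the others, T cell markers of 0 in all 4 populations, and the 2 listed B cell markers of 2.31 to 193 TPM. The part of these markers in the results was not tested. Lower transcript levels in a population and fewer cells of a kind within it cannot be told apart in means over cells, and the values in single cells are therefore given.

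**Figure D1:**
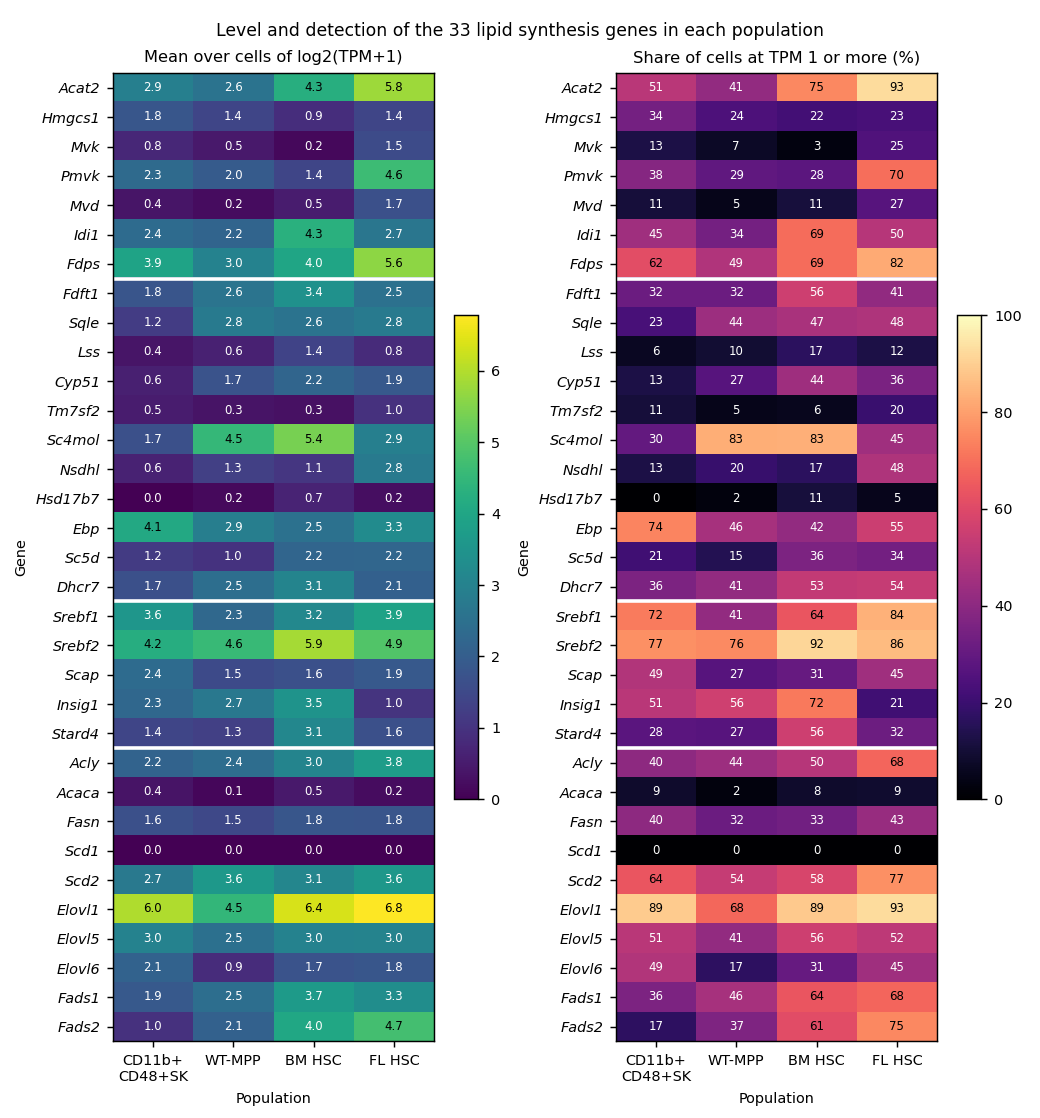
Level and detection of the 33 genes (rows, white lines between the 4 roles) in the 4 populations (columns), as the mean over cells of log2(TPM+1) on the left and the percentage of cells with the gene present on the right. On the left, Elovl1 is the brightest row in CD11b+CD48+SK cells, BM HSC and FL HSC, Sc4mol is bright in WT-MPP and BM HSC, and Acat2, Pmvk and Fdps are brightest in FL HSC.

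Most of these genes were found in a minority of cells. The median member was present in 47.2% of BM HSC, 44.6% of FL HSC, 31.7% of WT-MPP and 36.2% of CD11b+CD48+SK cells. The number of members present per cell ran from 5 to 24 with a median of 15 in BM HSC, from 6 to 25 with a median of 16 in FL HSC, from 5 to 18 with a median of 11 in WT-MPP, and from 6 to 21 with a median of 11 in CD11b+CD48+SK cells. It moved with the number of all genes present in the same cell, with Spearman's rho of 0.80 over 47 CD11b+CD48+SK cells, 0.66 over 41 WT-MPP, 0.73 over 36 BM HSC and 0.49 over 56 FL HSC. Both counts of a cell come from the same library, so these are descriptions without a test.

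**Figure D2:**
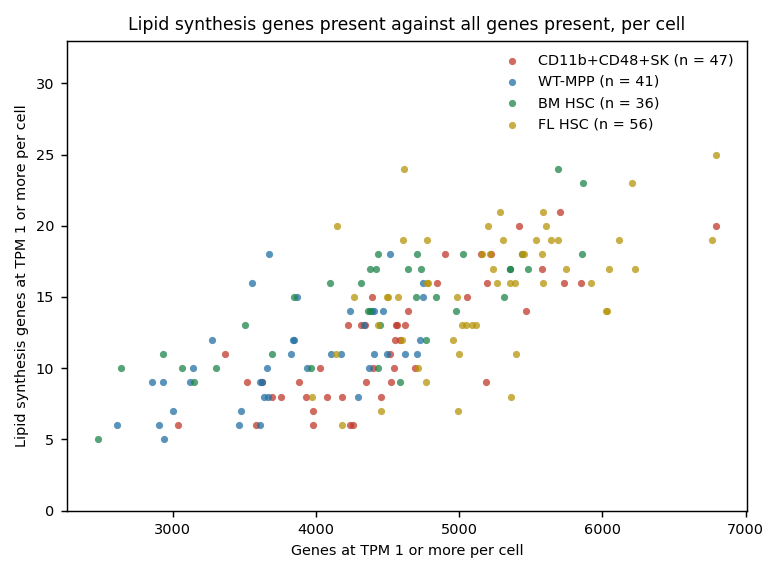
Members present (vertical axis, of 33) against all genes present (horizontal axis), each point 1 cell, coloured by population. In all 4 populations cells with more genes present also had more members present, and CD11b+CD48+SK cells and FL HSC reach farthest to the right.

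Summed over the 33 genes, CD11b+CD48+SK cells had the lowest median. The sum had a lowest, median and highest value of 746, 1665 and 4326 TPM in BM HSC, of 293, 1228 and 3997 TPM in FL HSC, of 38.7, 1284 and 3661 TPM in WT-MPP, and of 14.48, 847 and 1465 TPM in CD11b+CD48+SK cells. The ranges overlapped, but 23 of 36 BM HSC, 19 of 41 WT-MPP and 20 of 56 FL HSC lay above the highest CD11b+CD48+SK cell. Against the adult populations the gap was widest for the enzymes of squalene and sterol, whose sum had a median of 459 TPM in BM HSC, 238 TPM in FL HSC, 483 TPM in WT-MPP and 182 TPM in CD11b+CD48+SK cells. No CD11b+CD48+SK cell exceeded 578 TPM there, whereas 6 of 56 FL HSC, 14 of 36 BM HSC and 16 of 41 WT-MPP did. The mevalonate enzymes had another order, with medians of 181, 287, 314 and 408 TPM in CD11b+CD48+SK cells, WT-MPP, BM HSC and FL HSC. The mevalonate sum was the larger of both sums in 39 of 56 FL HSC, or 69.6% (95% Clopper-Pearson interval 55.9 to 81.2%), in 27 of 47 CD11b+CD48+SK cells, or 57.4% (42.2 to 71.7%), in 14 of 36 BM HSC, or 38.9% (23.1 to 56.5%), and in 13 of 41 WT-MPP, or 31.7% (18.1 to 48.1%). These intervals cover the counting of cells only.

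**Figure D3:**
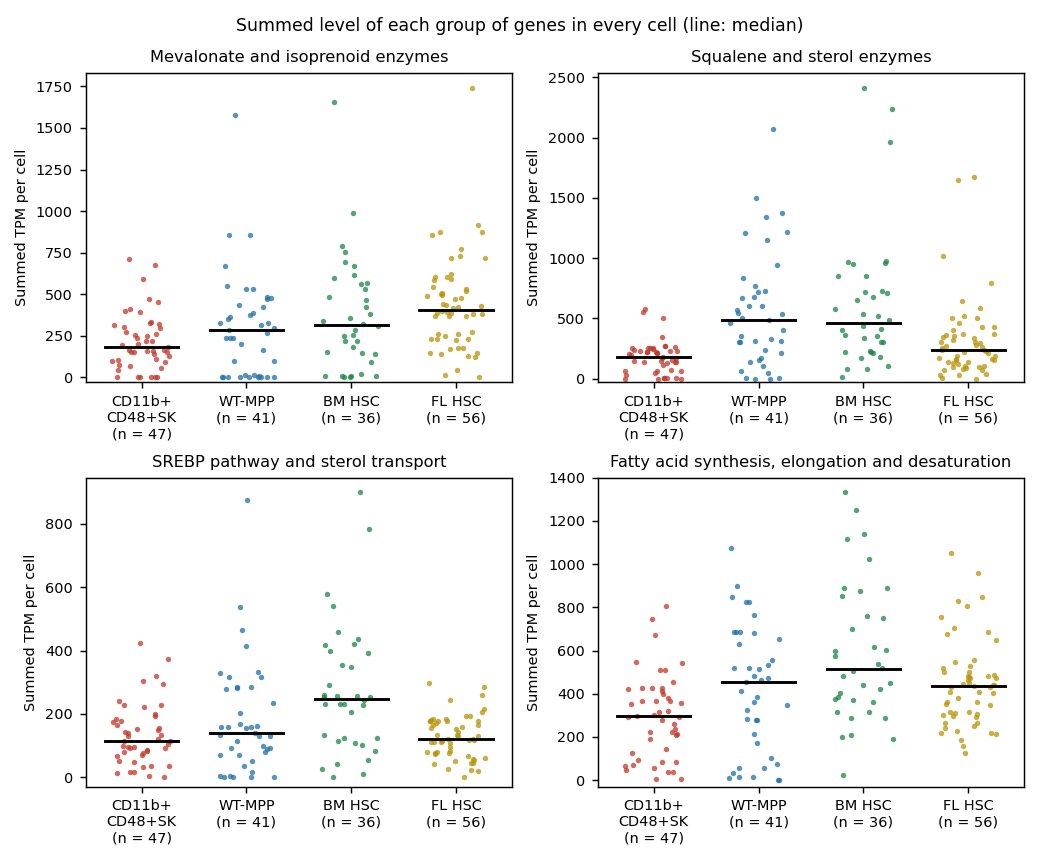
Summed TPM per cell (vertical axes) of the 4 groups of genes in the 4 populations, each point 1 cell and each line a median. CD11b+CD48+SK cells stay at or below 578 TPM for the squalene and sterol enzymes while WT-MPP and BM HSC reach 2069 and 2413 TPM, and FL HSC have the highest median for the mevalonate enzymes, 408 TPM.

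Differences between populations were taken as differences of the mean over cells of log2(TPM+1), and a gene was counted as higher or lower at a difference of 1 log2 unit or more in size. The 6 comparisons share their samples, so they do not support each other. Against WT-MPP, the wild-type form of the transplanted progenitors, CD11b+CD48+SK cells had 4 of 31 members higher and 4 lower, where 19% and 5.01% of the 10856 genes were higher and lower. The median member differed by 0.15 and the median gene by 0.21, and the higher members were Elovl1, Srebf1, Elovl6 and Ebp. Against BM HSC, 1 of 31 members was higher and 13 lower in CD11b+CD48+SK cells, with 13.4% and 11.8% of all genes, and the median member differed by -0.67 where the median gene stood near 0. Against FL HSC, 1 member was higher and 12 lower, with 4.02% and 20.9% of all genes, and the median was -0.73 for members and -0.32 for all genes.

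Between both stem cells, 6 of 31 members were higher in FL HSC than in BM HSC and 4 lower, where 25.6% and 5.44% of all genes were, and the median was 0.21 for members and 0.31 for all genes. In FL HSC minus WT-MPP, 11 members were higher and 2 lower (33.9% and 3.08% of all genes), and the median was 0.48 for members and 0.56 for all genes. WT-MPP had no member higher and 8 lower than BM HSC (2.67% and 14.49% of all genes), with a median of -0.62 for members and -0.22 for all genes. Of the 31 members, 14 had their highest mean in FL HSC, 12 in BM HSC, 4 in CD11b+CD48+SK cells and 1 in WT-MPP, against 48.6%, 22.9%, 19.5% and 9.04% of all genes. By mean TPM the order was another, with 15 members highest in BM HSC, 7 in WT-MPP, 6 in FL HSC and 3 in CD11b+CD48+SK cells, against 32.5%, 29.7%, 23.1% and 14.7% of all genes.

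Means of log2 values weigh how often a gene is present, and the split changed when the log2 was taken of the mean TPM instead. On that scale CD11b+CD48+SK cells had 0 members higher and 10 lower relative to WT-MPP, with 10.3% and 24.1% of all genes, and the median gene moved from 0.21 to -0.32. Among cells with 4000 to 5000 genes present, 24 CD11b+CD48+SK cells and 17 WT-MPP, a range chosen after the data were seen, 1 member was higher and 9 lower, with 11.8% and 15.1% of all genes. Between both stem cells the members' median of 0.21 turned to -0.38 on the log2 of mean TPM, with 5 higher and 8 lower. There 11.8% and 19.3% of all genes were higher and lower, and the median gene moved from 0.31 to -0.13. Among cells with 4000 to 5000 genes present the members' median was -0.33 and that of all genes 0.08. FL HSC minus WT-MPP had 3 members higher and 7 lower on the log2 of mean TPM, with 14.8% and 17.8% of all genes. On that scale WT-MPP minus BM HSC had 4 higher, with 11.7% of all genes.

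**Figure D4:**
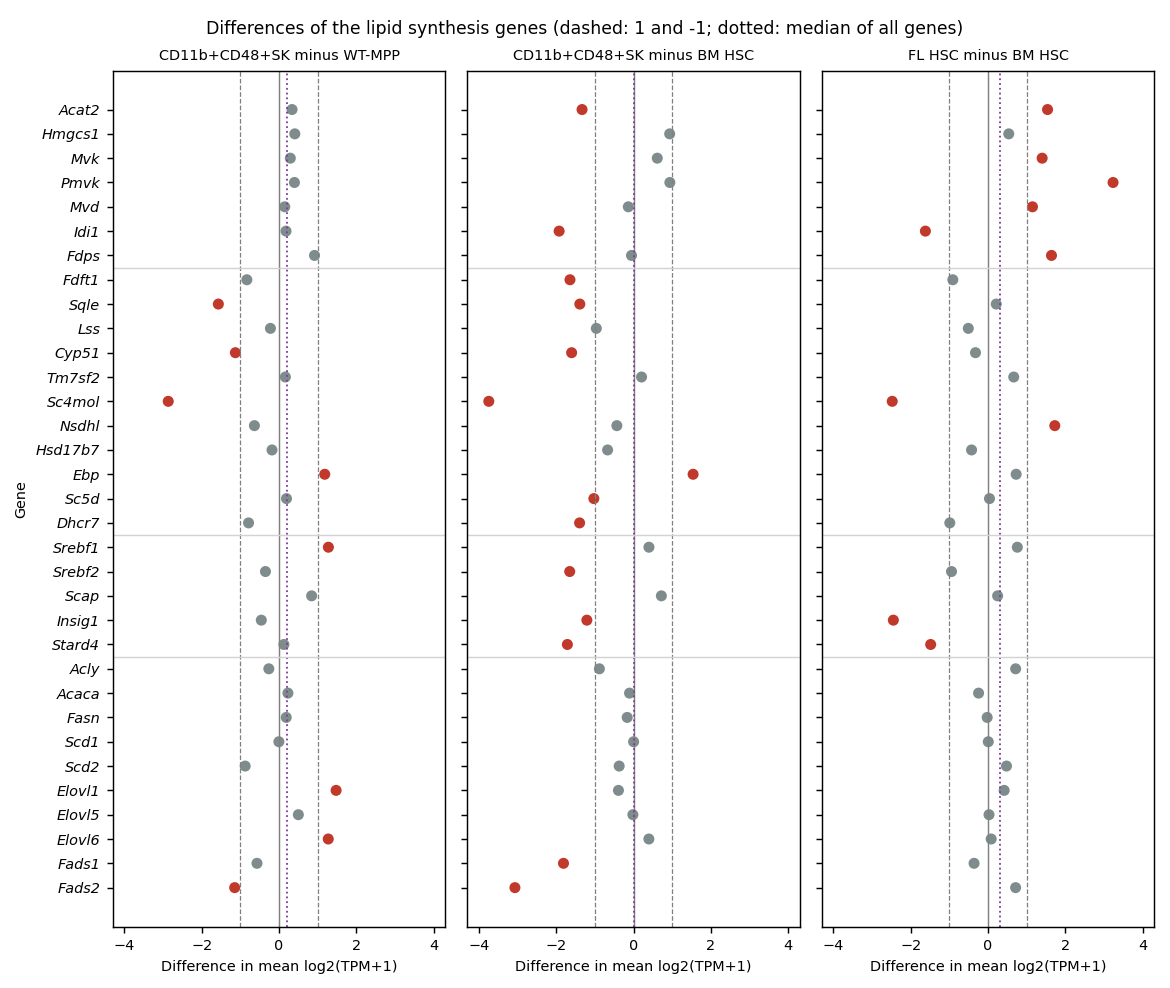
Difference in mean log2(TPM+1) for each gene (rows) in 3 comparisons, red where it is 1 or more in size, with dashed lines at 1 and -1 and a dotted line at the median of all 10856 genes. Sc4mol lies farthest left in the first and second panels, and the mevalonate enzymes other than Idi1 lie to the right of 0 in FL HSC minus BM HSC.

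The mevalonate and isoprenoid enzymes were highest in FL HSC, except Idi1 and Hmgcs1. Of the 7, 5 were higher in FL HSC than in BM HSC and 1 lower, where 25.6% and 5.44% of all genes were, and 5 were higher than in WT-MPP and 0 lower (33.9% and 3.08% of all genes). On the log2 of mean TPM the differences of Acat2, Pmvk and Fdps from WT-MPP were 0.81, 0.59 and 0.30, below the threshold. Acat2, the cytosolic thiolase that joins acetyl-CoA units (chr17:12942890-12960747), was present in 92.9% of FL HSC, 75% of BM HSC, 51.1% of CD11b+CD48+SK cells and 41.5% of WT-MPP. Its lowest, median and highest TPM were 0, 109 and 431 in FL HSC, 0, 34.98 and 377 in BM HSC, 0, 1.84 and 356 in CD11b+CD48+SK cells and 0, 0.61 and 533 in WT-MPP. The populations overlapped over nearly their whole range and differed in how many cells held the transcript. The difference was 3.20 for FL HSC minus WT-MPP, 1.54 for FL HSC minus BM HSC and -2.87 for CD11b+CD48+SK cells minus FL HSC. The near-identical gene Acat3 is listed separately, and how reads shared by both were assigned is not given in the sources used here.

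Pmvk, phosphomevalonate kinase (chr3:89454541-89469013), was present in 39 of 56 FL HSC (69.6%, interval 55.9 to 81.2%) and in 38.3% of CD11b+CD48+SK cells, 29.3% of WT-MPP and 27.8% of BM HSC. Its median was 67.9 TPM in FL HSC and 0 in the other populations, whose highest cells reached 161, 387 and 252 TPM. This was the largest difference of any member between both stem cells, 3.23 for FL HSC minus BM HSC, on the log2(TPM+1) scale. It was 2.22 among cells with 4000 to 5000 genes present, where Sc4mol at -2.89 and Insig1 at -2.395 were larger, and 1.502 on the log2 of mean TPM, where 1 of several larger differences was that of Mvk at 3.36. Fdps, the synthase of the farnesyl unit from which sterols and prenyl groups branch, was present in 82.1% of FL HSC, 69.4% of BM HSC, 61.7% of CD11b+CD48+SK cells and 48.8% of WT-MPP, at mean TPM of 134, 131, 82.1 and 108. Its difference for FL HSC minus BM HSC was 1.64, and 0.03 when the log2 was taken of the mean TPM, where Acat2 likewise came to 0.23, and Acat2 was at 0.81 among cells with 4000 to 5000 genes present. Mvk, mevalonate kinase, and Mvd, mevalonate diphosphate decarboxylase, were rarer, at 25% and 26.8% of FL HSC and at no more than 12.8% of any other population. Their FL HSC minus BM HSC differences were 1.40 and 1.15.

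Idi1, the isomerase of the isoprenoid units (chr13:8885501-8892451), was highest in BM HSC instead. It was present in 69.4% of BM HSC (interval 51.9 to 83.7%), 50% of FL HSC, 44.7% of CD11b+CD48+SK cells and 34.1% of WT-MPP (20.1 to 50.6%). Median TPM was 50.7 in BM HSC and 0.75, 0.35 and 0.39 in FL HSC, WT-MPP and CD11b+CD48+SK cells. The highest cells held 633 TPM in BM HSC and 356, 271 and 119 TPM in these. Relative to BM HSC the difference was -1.93 in CD11b+CD48+SK cells, -1.62 in FL HSC and -2.10 in WT-MPP. Hmgcs1, the cytosolic HMG-CoA synthase, differed by less than 1 in all 6 comparisons and was present in 34.04% of CD11b+CD48+SK cells and in 22.2 to 24.4% of the others. Among cells with 4000 to 5000 genes present it stood 1.59 above BM HSC in CD11b+CD48+SK cells and 1.48 above in FL HSC, and on the log2 of mean TPM WT-MPP minus BM HSC was 1.34. In CD11b+CD48+SK cells minus WT-MPP all 7 enzymes lay between 0.15 and 0.92, so none was counted as higher or lower, and on the log2 of mean TPM all but Mvk were below 0, from -0.87 to -0.37. Acat2 was at -1.20 among cells with 4000 to 5000 genes present.

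The enzymes of squalene and sterol were mostly lowest in CD11b+CD48+SK cells. Of the 11, 6 were lower than in BM HSC and 1 higher, with a median of -1.03, 3 were lower than in WT-MPP and 1 higher, with a median of -0.64, and 5 were lower than in FL HSC and 0 higher, with a median of -0.73. Of all genes, 11.8%, 5.01% and 20.9% were lower and 13.4%, 19% and 4.02% higher in these comparisons, with medians near 0, of 0.21 and of -0.32. On the log2 of mean TPM 7 of the 11 were lower than in WT-MPP and 0 higher, among them Fdft1 at -2.07, Nsdhl at -2.01 and Dhcr7 at -1.43. On that scale 24.1% of all genes were lower and 10.3% higher, with a median of -0.32. With a pseudocount of 10, 1 of the 11 was lower relative to WT-MPP, 1 relative to BM HSC and 1 relative to FL HSC. At that setting 1.58%, 4.03% and 7.12% of all genes were lower in these comparisons. By mean TPM, CD11b+CD48+SK cells had the lowest value in 8 of the 11, FL HSC in 2, BM HSC in 1 and WT-MPP in 0, and over all genes 39.5% were lowest in CD11b+CD48+SK cells.

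Sc4mol, now named Msmo1, is the methyl sterol oxidase that acts on the C4 methyl groups of the sterol ring (chr8:64718139-64733792). It was present in 30 of 36 BM HSC (83.3%, interval 67.2 to 93.6%) and 34 of 41 WT-MPP (82.9%, 67.9 to 92.8%), but in 25 of 56 FL HSC (44.6%, 31.3 to 58.5%) and 14 of 47 CD11b+CD48+SK cells (29.8%, 17.3 to 44.9%). Its lowest, median and highest TPM were 0, 98.9 and 1669 in BM HSC, 0, 0.50 and 805 in FL HSC, 0, 4.84 and 1148 in WT-MPP, and 0, 0 and 309 in CD11b+CD48+SK cells. At a TPM of 1 or more, adult progenitors and stem cells thus held it in most cells and the other populations in a minority, although all ranges began at 0. At a TPM of 5 or more the shares were 66.7% of BM HSC, 48.8% of WT-MPP, 41.1% of FL HSC and 23.4% of CD11b+CD48+SK cells. Relative to BM HSC, WT-MPP and FL HSC, the difference in CD11b+CD48+SK cells was -3.74, -2.87 and -1.26. Among cells with 4000 to 5000 genes present these were -4.58, -3.45 and -1.69. FL HSC lay below the adult populations too, by -2.48 against BM HSC and -1.60 against WT-MPP.

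**Figure D5:**
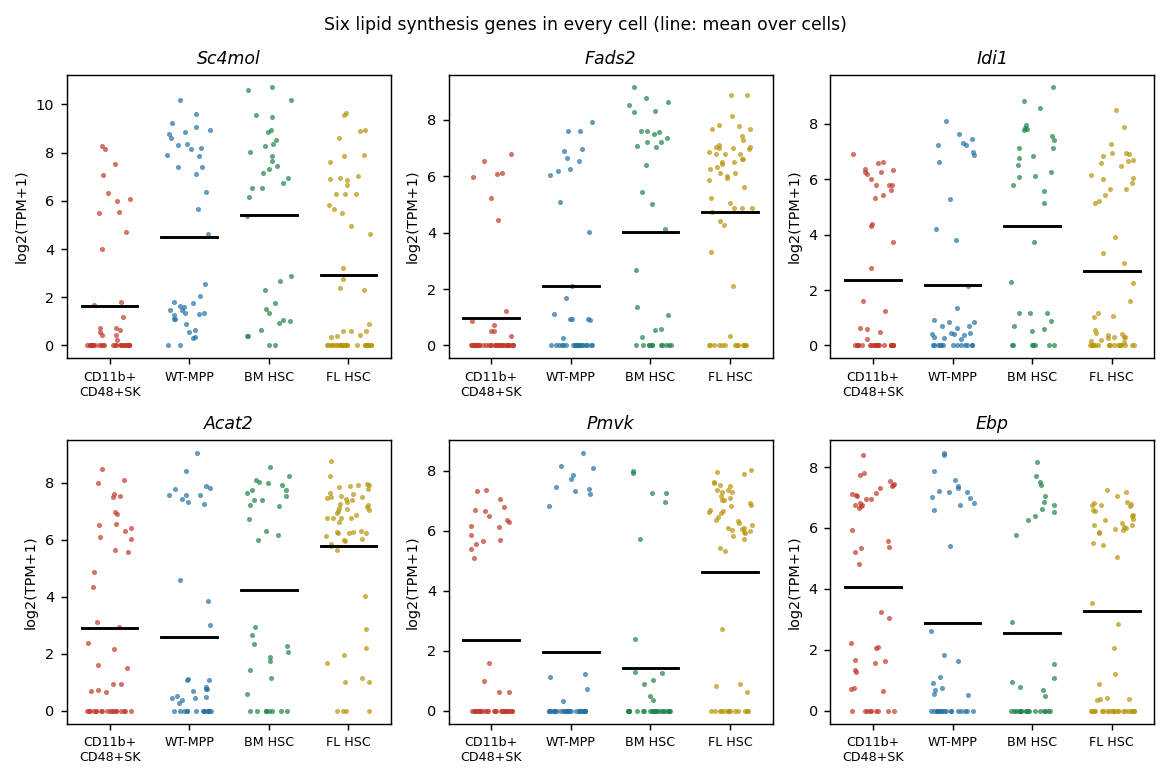
The log2(TPM+1) value (vertical axes) of Sc4mol, Fads2, Idi1, Acat2, Pmvk and Ebp in every cell of the 4 populations, with the mean as a line. Most genes split into cells near 0 and cells above about 4 log2 units, and the means follow the share of cells in the upper group, as for Pmvk in FL HSC (69.6% present) and Sc4mol in CD11b+CD48+SK cells (29.8% present).

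Sqle, squalene epoxidase, was present in 23.4% of CD11b+CD48+SK cells and in 43.9%, 47.2% and 48.2% of WT-MPP, BM HSC and FL HSC, with highest cells of 233, 1092, 570 and 158 TPM. Relative to these, the difference in CD11b+CD48+SK cells was -1.57, -1.39 and -1.60, the first of which was -0.97 among cells with 4000 to 5000 genes present. Cyp51, the lanosterol demethylase (chr5:4081145-4104746), was present in 12.8% of CD11b+CD48+SK cells (interval 4.83 to 25.7%) and in 26.8%, 44.4% and 35.7% of the others, at mean TPM of 4.03 against 36.8, 46.2 and 17.8. The differences were -1.13, -1.60 and -1.28. Sc4mol, Sqle, Cyp51 and Fads2 were the 4 members lower by 1 or more in CD11b+CD48+SK cells than in each of the other populations. In single cells Sqle and Cyp51 were both present in 11 of 56 FL HSC and 8 of 36 BM HSC, and in 4 of 41 WT-MPP and 4 of 47 CD11b+CD48+SK cells.

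Fdft1, squalene synthase, was present in 55.6% of BM HSC, 41.1% of FL HSC, 31.7% of WT-MPP and 31.9% of CD11b+CD48+SK cells, and Dhcr7, the dehydrocholesterol reductase, in 52.8%, 53.6%, 41.5% and 36.2% in that order. In CD11b+CD48+SK cells minus BM HSC they differed by -1.64 and -1.40, and Sc5d, the sterol desaturase, by -1.03. Nsdhl, which acts after Sc4mol, was most frequent in FL HSC, at 48.2% against 12.8%, 19.5% and 16.7% of CD11b+CD48+SK cells, WT-MPP and BM HSC. It differed by 1.72 for FL HSC minus BM HSC. Lss, lanosterol synthase, and Tm7sf2, a sterol reductase, were present in at most 16.7% and 19.6% of any population and differed by less than 1 in mean log2(TPM+1). On the log2 of mean TPM, Lss was lower than in BM HSC in the other populations, by -2.98 in CD11b+CD48+SK cells, -2.12 in WT-MPP and -1.67 in FL HSC, and Tm7sf2 was at 1.36 for FL HSC minus BM HSC. Hsd17b7, a keto-sterol reductase, was found in 0 of 47 CD11b+CD48+SK cells, where 3 cells would make a share of 6.38%, and in 4 of 36 BM HSC, 3 of 56 FL HSC and 1 of 41 WT-MPP.

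Of the sterol enzymes not lowest in CD11b+CD48+SK cells, Tm7sf2 had its lowest mean log2(TPM+1) in BM HSC and Sc5d in WT-MPP. Ebp, the sterol isomerase (chrX:8185329-8193512), was the only sterol enzyme highest in CD11b+CD48+SK cells. It was present in 35 of 47 CD11b+CD48+SK cells (74.5%, interval 59.7 to 86.1%), 55.4% of FL HSC, 46.3% of WT-MPP and 41.7% of BM HSC (25.5 to 59.2%), with median TPM of 35.9, 8.44, 0.69 and 0.49. Its highest cells held 336, 150.0, 354 and 285 TPM in that order. The difference was 1.18 from WT-MPP and 1.54 from BM HSC. Against WT-MPP it was 0.42 among cells with 4000 to 5000 genes present and 0.17 on the log2 of mean TPM, below the threshold on both, and against BM HSC it was 0.61 on the latter.

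Among the genes of SREBP control and sterol transport, 3 of 5 were lower in CD11b+CD48+SK cells than in BM HSC and 0 higher (11.8% and 13.4% of all genes), with a median of -1.21. Srebf2, which encodes SREBP2, was the most widespread of them, present in 91.7% of BM HSC, 85.7% of FL HSC, 75.6% of WT-MPP and 76.6% of CD11b+CD48+SK cells. Its lowest, median and highest TPM were 0.24, 100.3 and 367 in BM HSC, 0, 45.97 and 199 in FL HSC, 0, 68.3 and 319 in WT-MPP, and 0, 32.5 and 181 in CD11b+CD48+SK cells. BM HSC were the only population in which it was above 0 in all cells. The differences from BM HSC were -1.65, -1.30 and -0.95 in CD11b+CD48+SK cells, WT-MPP and FL HSC. That of WT-MPP was -0.50 on the log2 of mean TPM, and that of FL HSC was -1.35 among cells with 4000 to 5000 genes present. Srebf1, which encodes SREBP1, was present in 72.3%, 41.5%, 63.9% and 83.9% of CD11b+CD48+SK cells, WT-MPP, BM HSC and FL HSC, and was lowest in WT-MPP, by 1.27 relative to CD11b+CD48+SK cells and by 1.63 relative to FL HSC. With 4000 to 5000 genes present these were 0.93 and 0.29, and FL HSC minus BM HSC turned from 0.76 to -1.29.

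Insig1, the sterol-responsive anchor of the SCAP complex (chr5:28071363-28078662), was lowest in FL HSC. It was present in 12 of 56 FL HSC (21.4%, interval 11.6 to 34.4%), 51.1% of CD11b+CD48+SK cells, 56.1% of WT-MPP and 26 of 36 BM HSC (72.2%, 54.8 to 85.8%), with median TPM of 0, 1.38, 1.605 and 7.25. FL HSC minus BM HSC was -2.45 and FL HSC minus WT-MPP was -1.70. CD11b+CD48+SK cells lay between, at 1.24 above FL HSC, or 0.62 among cells with 4000 to 5000 genes present, and at -1.21 from BM HSC. Stard4, a cytosolic sterol carrier, was present in 55.6% of BM HSC and in 26.8 to 32.1% of the other populations, with differences from BM HSC of -1.71, -1.84 and -1.49 in CD11b+CD48+SK cells, WT-MPP and FL HSC. The first of these was -0.996 among cells with 4000 to 5000 genes present, below the threshold in size. Scap, the escort itself, was present in 48.9% of CD11b+CD48+SK cells and 26.8% of WT-MPP and differed by less than 1 in all 6 comparisons. Among cells with 4000 to 5000 genes present its FL HSC minus WT-MPP difference turned from 0.37 to -2.35 and that of WT-MPP minus BM HSC from -0.12 to 1.35, and CD11b+CD48+SK cells stood 2.07 above FL HSC and 1.07 above BM HSC.

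A minority of the fatty acid genes passed the threshold in any comparison of CD11b+CD48+SK cells. Of the 8 that passed the filter, CD11b+CD48+SK cells had 2 higher and 1 lower against WT-MPP (19% and 5.01% of all genes), 0 and 2 against BM HSC (13.4% and 11.8%), and 0 and 3 against FL HSC (4.02% and 20.9%). Against WT-MPP these counts were 0 and 3 on the log2 of mean TPM (10.3% and 24.1% of all genes) and 1 and 4 among cells with 4000 to 5000 genes present (11.8% and 15.1%). Acly, the citrate lyase that supplies cytosolic acetyl-CoA to both pathways, was present in 67.9% of FL HSC and in 40.4%, 43.9% and 50% of CD11b+CD48+SK cells, WT-MPP and BM HSC. FL HSC exceeded WT-MPP by 1.33 in Acly, but by -0.06 on the log2 of mean TPM, since the mean TPM was 44.4 and 46.5. Fasn, fatty acid synthase, differed by less than 1 in every comparison, with a mean TPM of 15.3 in BM HSC and 9.90 in FL HSC, against 10.7 in WT-MPP and 7.51 in CD11b+CD48+SK cells. Acaca, the carboxylase before it, was present in at most 8.93% of a population. Its level was below the filter, as was that of the stearoyl-CoA desaturase Scd1, which did not exceed 0.18 TPM in any cell. The other desaturase of that kind, Scd2, which lies 87590 bases from Scd1 on chromosome 19, was present in 63.8%, 53.7%, 58.3% and 76.8% of CD11b+CD48+SK cells, WT-MPP, BM HSC and FL HSC. Its mean TPM was 18.96, 64.4, 26.8 and 27.5 in that order, and CD11b+CD48+SK cells minus WT-MPP was -0.88, or -1.71 on the log2 of mean TPM and -2.15 among cells with 4000 to 5000 genes present.

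Elovl1, which elongates very long saturated chains (chr4:118428093-118432953), had the highest mean TPM of the 33 genes in FL HSC, 189, and in CD11b+CD48+SK cells, 161, and reached 149 in WT-MPP and 242 in BM HSC. It was present in 88.9% of BM HSC, 92.9% of FL HSC, 68.3% of WT-MPP and 89.4% of CD11b+CD48+SK cells. By the log2 measure WT-MPP were the lowest, with differences of 1.47 for CD11b+CD48+SK cells and 2.28 for FL HSC minus WT-MPP. On the log2 of mean TPM these came to 0.11 and 0.34. Elovl1 overlaps the end of the mitotic gene Cdc20 on the other strand by 53 bases in GENCODE M21, and whether strand was used in counting is not given in the sources used here. Elovl6, which elongates palmitate, was present in 48.9% of CD11b+CD48+SK cells (interval 34.1 to 63.9%) and 17.1% of WT-MPP (7.15 to 32.1%), a difference of 1.27 that was 0.85 among cells with 4000 to 5000 genes present and 0.80 on the log2 of mean TPM. Elovl5, of polyunsaturated chains, was present in 41.5 to 55.6% of each population and differed by less than 1, but relative to WT-MPP it turned from 0.50 to -1.19 in CD11b+CD48+SK cells and from 0.54 to -1.22 in FL HSC among cells with 4000 to 5000 genes present.

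Fads2 and Fads1 encode the delta-6 and delta-5 desaturases of polyunsaturated fatty acids and lie 81141 bases apart on chromosome 19. Fads2 (chr19:10062765-10101746) was present in 42 of 56 FL HSC (75%, interval 61.6 to 85.6%) and 22 of 36 BM HSC (61.1%, 43.5 to 76.9%), but in 15 of 41 WT-MPP (36.6%, 22.1 to 53.1%) and 8 of 47 CD11b+CD48+SK cells (17.02%, 7.65 to 30.8%). Its lowest, median and highest TPM were 0, 23.7 and 564 in BM HSC, 0, 65.4 and 465 in FL HSC, 0, 0 and 243 in WT-MPP, and 0, 0 and 108 in CD11b+CD48+SK cells. Both stem cells thus held it in most cells, and MPP and CD11b+CD48+SK cells did not. CD11b+CD48+SK cells differed by -1.15 from WT-MPP, by -3.07 from BM HSC and by -3.78 from FL HSC, the last of which was the largest difference of any member in mean log2(TPM+1) over the 6 comparisons. Among cells with 4000 to 5000 genes present these were -2.37, -3.45 and -2.76, and FL HSC minus WT-MPP went from 2.63 to 0.39.

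Fads1 had the same order by share of cells, being present in 63.9% of BM HSC, 67.9% of FL HSC, 46.3% of WT-MPP and 36.2% of CD11b+CD48+SK cells. Its difference in CD11b+CD48+SK cells was -1.81 from BM HSC and -1.45 from FL HSC, and -0.57 from WT-MPP. The last was -1.455 on the log2 of mean TPM. Cells with both desaturases numbered 29 of 56 FL HSC, 17 of 36 BM HSC, 9 of 41 WT-MPP and 3 of 47 CD11b+CD48+SK cells. The mevalonate, squalene and sterol enzymes were also summed together, as 18 cholesterol synthesis enzymes. That sum and the fatty acid sum of a cell were weakly related. Their rho was 0.09 in BM HSC and 0.20 in FL HSC, against 0.21 in WT-MPP and 0.21 in CD11b+CD48+SK cells. Since TPM of a cell share 1 total, this is given as a description.

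Proliferation genes differed between the populations as well. Of 24 proliferation genes, CD11b+CD48+SK cells had 20 higher and 0 lower against WT-MPP (19% and 5.01% of all genes), 18 and 0 against BM HSC (13.4% and 11.8%), and 0 and 7 against FL HSC (4.02% and 20.9%). FL HSC had 22 higher and 0 lower than BM HSC (25.6% and 5.44%). Their summed TPM had a median of 819 in BM HSC and 1585 in FL HSC, against 534 in WT-MPP and 1911 in CD11b+CD48+SK cells. Within cells, this proliferation sum was set against the sum of the 18 cholesterol synthesis enzymes. Its rho was 0.08 in BM HSC and -0.21 in FL HSC, against -0.09 in WT-MPP and 0.40 in CD11b+CD48+SK cells. In CD11b+CD48+SK cells the rho of the cholesterol synthesis sum with the number of genes present was 0.54. With the fatty acid sum, the rho of proliferation was 0.07 in BM HSC and -0.36 in FL HSC, against 0.35 in WT-MPP and -0.15 in CD11b+CD48+SK cells. The part of proliferation in the differences of the members was not tested.

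The wider lipid genes showed the pathways beside these. Of 20 other sterol and isoprenoid genes, CD11b+CD48+SK cells had 4 higher and 1 lower against WT-MPP (19% and 5.01% of all genes), shares near those of all genes, and 2 higher and 6 lower against BM HSC (13.4% and 11.8% of all genes). Those of largest difference from BM HSC were Ggps1, the geranylgeranyl diphosphate synthase, at -1.83, Erlin2 at -1.72 and Mbtps1, the site 1 protease that cleaves SREBP, at -1.69. Relative to WT-MPP they were Acss2, the cytosolic acetyl-CoA synthetase, at -2.14, Tmem97 at 1.89 and Pdss1, of ubiquinone side chain synthesis, at 1.63. Of 12 genes of fatty acid supply and activation, 3 were higher in FL HSC than in BM HSC and 2 lower, where 25.6% and 5.44% of all genes were, so that the share higher was near that of all genes. The list was led by the fatty acid binding protein Fabp5 at 3.45 and the mitochondrial citrate carrier Slc25a1 at 2.71, with Mcat, of mitochondrial fatty acid synthesis, at 1.73. Slc25a1 differed by -2.67 in CD11b+CD48+SK cells minus FL HSC.

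Cholesterol export, uptake and esterification held the largest difference of the wider lipid lists in the 6 comparisons. Of its 15 genes past the filter, 4 were higher and 1 lower in CD11b+CD48+SK cells than in BM HSC (13.4% and 11.8% of all genes), and 5 were higher and 0 lower in FL HSC than in BM HSC (25.6% and 5.44% of all genes). The lower gene was Apoe, the apolipoprotein that carries lipid out of cells, whose mean log2(TPM+1) was 10.23 in FL HSC and 9.79 in BM HSC, against 5.56 in WT-MPP and 2.57 in CD11b+CD48+SK cells. CD11b+CD48+SK cells thus differed by -7.22 from BM HSC, by -7.66 from FL HSC and by -2.98 from WT-MPP. The 2 next largest against BM HSC were the lipoprotein receptor Scarb1 at 1.81 and the lysosomal cholesterol carrier Npc2 at 1.68. Scarb1 and Npc2 also led FL HSC minus BM HSC, at 2.65 and 2.16, followed by the sterol transport protein Stard3 at 2.08.

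Fatty acid oxidation, the opposite pathway, had 12 of 20 genes higher and 0 lower in FL HSC than in BM HSC (25.6% and 5.44% of all genes), with a median of 1.16 against 0.31 for all genes, led by the enoyl-CoA hydratase Echs1 at 2.69, with Acaa2 at 1.89 and Eci2 at 1.86. The TPM summed over the 22 listed genes of the pathway differed less, with a median of 2724 in FL HSC and 2518 in BM HSC. In CD11b+CD48+SK cells 8 of the 20 were higher and 2 lower than in WT-MPP (19% and 5.01% of all genes), among them Hadhb, of the mitochondrial trifunctional protein, at 2.34 and Acadm, the medium-chain dehydrogenase, at -2.77. Acadm was lower than in BM HSC as well, at -2.57. By summed TPM the list ran the other way against WT-MPP, with a median of 2681 in CD11b+CD48+SK cells and 3004 in WT-MPP. Of 19 genes of triacylglycerol and phospholipid synthesis, 0 were higher and 5 lower in CD11b+CD48+SK cells than in BM HSC (13.4% and 11.8% of all genes), and the choline and ethanolamine phosphotransferase Cept1 differed by -1.90, Pisd by -1.86 and Chpt1 by -1.54.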

How the data were processed

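Sorted single cells were sequenced by Smart-seq2, and per the submitters' processing notes the authors used HISAT2 2.1.0, SAMtools 0.1.19 and StringTie 1.3.4, the last for expression estimates, and the mm10 genome. The deposited values were TPM, which sum to 1000000 in each cell and keep no read depth, so the precision per cell is unknown. The gene annotation, the use of strand and the handling of reads shared by copies were not given in the sources used here. Of 181 columns of cells, 180 were used, and 1 named as a WT-MPP cell, without a sample of its own, was not. No other cell was left out. Each library was taken as 1 cell, and no doublets were sought.

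Groups came from the titles of the samples. Values were transformed to log2(TPM+1), with a pseudocount of 1, and averaged over the cells of a population. Genes present, at a TPM of at least 1, in 10% or more of any population's cells were kept, 10856 genes. Since no animal was named, each population was 1 sample, no test was made, and a difference of 1 log2 unit was the threshold. Shares of cells carry 95% exact Clopper-Pearson intervals, and a count of 0 is given with the share that 3 cells would make. The arithmetic was tested on simulated data.

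The members and lists were chosen with earlier results of these data known. All members were to be named, and of each other list up to 3 genes of largest difference past the threshold in the comparisons described. Of the proliferation and cell type marker lists the counts or summed levels are given, and genes the rule names there are mostly not listed. A result that the rule names is not reported here. Alternatives were pseudocounts of 0.1 and 10, no filter, median ratio scaling, the log2 of mean TPM, leaving out the 10% of cells with the fewest and the 10% with the most genes present, a TPM of 5 as the limit of presence, and, added after seeing the data, cells with 4000 to 5000 genes present. Positions came from GENCODE M21 on GRCm38, the assembly of mm10, and promoters from RefSeq on GRCm38.p6. By GENCODE, Fdft1 overlaps Ctsb, Cyp51 overlaps Akap9 and Srebf1 overlaps Rai1 on the other strand, and Tm7sf2 overlaps Vps51 on its own, and Fdps and Mvd overlap the gene models Gm43738 and Gm20388. Python 3.11.15, numpy 2.4.6, pandas 2.3.3, scipy 1.17.1 and matplotlib 3.10.9 were used.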

Additional observations from a re-analysis of the deposited data

How the results depend on the processing

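No paired analysis was possible because the replicate numbers in the labels only count cells within a population, and no test was made. Leaving out a replicate was not run, since each population was 1 sample.

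The median difference of the members and their counts past 1 log2 unit depended on the scale. In CD11b+CD48+SK cells minus WT-MPP the median of 0.15 turned to -0.76 on the log2 of mean TPM, -0.21 without the 10% of cells with the fewest and the 10% with the most genes present and -0.28 among cells with 4000 to 5000 genes present, and was 0.0367 with a pseudocount of 0.1 and 0.0176 with 10. Counts higher were 0 on the log2 of mean TPM, 0 with a pseudocount of 10 and 1 among cells with 4000 to 5000 genes present, and counts lower were 10, 1 and 9 in that order and 8 with a pseudocount of 0.1. Of all genes, 10.3%, 6.95% and 11.8% were higher in that order, and 24.1%, 1.58%, 15.1% and 11.2% lower. In CD11b+CD48+SK cells minus BM HSC the median of -0.67 was -0.43 with no filter, -1.14 with a pseudocount of 0.1 and -0.39 with 10. Counts higher were 4 with a pseudocount of 0.1, 0 with 10 and 4 among cells with 4000 to 5000 genes present, and 5 were lower with a pseudocount of 10. Of all genes, 21.4%, 4.95% and 13.7% were higher in that order, and 4.03% lower with a pseudocount of 10. In CD11b+CD48+SK cells minus FL HSC a pseudocount of 10 gave a median of -0.41, with 0 higher and 4 lower (1.65% and 7.12% of all genes). With a pseudocount of 0.1, 2 were higher (8.70% of all genes), and 2 were among cells with 4000 to 5000 genes present (8.82%).

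In FL HSC minus BM HSC the median of 0.21 turned to -0.38 on the log2 of mean TPM and -0.33 among cells with 4000 to 5000 genes present, and was 0.0792 with no filter, 0.36 with a pseudocount of 0.1 and 0.0488 with 10. Counts higher were 11 and 1 with pseudocounts of 0.1 and 10, and counts lower were 7 and 2 with these, 8 on the log2 of mean TPM and 7 among cells with 4000 to 5000 genes present. Of all genes, 34.9% and 9.61% were higher in that order, and 11.9%, 1.81%, 19.3% and 12.8% lower. In FL HSC minus WT-MPP the median turned to -0.10 on the log2 of mean TPM and was 0.21 with a pseudocount of 10. Counts higher were 3 on the log2 of mean TPM, 5 with a pseudocount of 10 and 7 among cells with 4000 to 5000 genes present, and counts lower were 7, 0 and 5. Of all genes, 14.8%, 14.3% and 19.6% were higher in that order, and 17.8%, 1.10% and 12.5% lower. In WT-MPP minus BM HSC the median was -0.27 on the log2 of mean TPM, -0.94 with a pseudocount of 0.1 and -0.29 with 10. Counts higher were 4 on the log2 of mean TPM and 4 among cells with 4000 to 5000 genes present, and counts lower were 14 and 3 with pseudocounts of 0.1 and 10. Of all genes, 11.7% and 13.5% were higher in that order, and 25.7% and 3.41% lower. The cause was not tested.

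Over these settings 62 of 186 member differences did not keep their sign, most of them below the threshold. Of those past the threshold, Acly in FL HSC minus WT-MPP turned to -0.0634 on the log2 of mean TPM and -0.0388 among cells with 4000 to 5000 genes present, and Nsdhl to -0.0385 on the log2 of mean TPM. Below it at first, these passed it with the sign turned among cells with 4000 to 5000 genes present: in CD11b+CD48+SK cells minus WT-MPP, Acat2 at -1.20 and Elovl5 at -1.19, in FL HSC minus WT-MPP, Elovl5 at -1.22 and Scap at -2.35, in WT-MPP minus BM HSC, Scap at 1.35, and in FL HSC minus BM HSC, Srebf1 at -1.29. On the log2 of mean TPM Cyp51 at -1.01 and Sqle at -1.42 did so in FL HSC minus WT-MPP. Median ratio scaling moved the median of all genes by less than 0.1 and left 185 of 186 member differences on their side of the threshold, while 45 differences no longer passed it with a pseudocount of 10, 22 on the log2 of mean TPM, 13 among cells with 4000 to 5000 genes present and 5 without the 10% of cells with the fewest and the 10% with the most genes present. With either sign, 29 differences newly passed it on the log2 of mean TPM, 34 among cells with 4000 to 5000 genes present, 32 with a pseudocount of 0.1 and 14 without those cells. Depth is unknown, and a share of cells without a transcript includes cells in which it was missed to an extent not known.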
